A study of Mus musculus with 6 samples.

Results

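Core circadian clock genes were examined in the left ventricle (LV) of Lztr1 R409C/+ and wild-type (WT) mice at 12 weeks of age. The 10 genes were Arntl, Clock, Npas2, Per1, Per2, Per3, Nr1d1, Nr1d2, Dbp and Tef, chosen by name as the activators, repressors and output factors of the clock, out of 56923 genes listed. Arntl is the symbol used in the deposited data for the gene that the current annotation calls Bmal1. Each group held 3 mice with 1 RNA library per mouse. The mutant mice carried, on 1 allele in every cell, a CRISPR-made knock-in of the R409C substitution in Lztr1, a substrate adaptor of a cullin ubiquitin ligase that acts on RAS-family proteins. The WT mice carried no mutant allele. Both groups were male, on a C57BL/6J background, with no treatment listed, housed under a light and dark cycle, and perfused with cold PBS before the LV was taken. The sample labels call the tissue heart. The time of day at which each heart was taken is not given in the sources used here, so genotype and time of day cannot be told apart in any comparison that follows.

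In the mammalian clock, ARNTL pairs with CLOCK or with its relative NPAS2 and activates genes that carry E-boxes in their control regions, including the Period, Nr1d and Dbp genes. PER proteins, together with cryptochromes, feed back to inhibit this activator. REV-ERBα and REV-ERBβ, the products of Nr1d1 and Nr1d2, repress Arntl, so that Arntl RNA peaks near the start of the rest phase of the mouse, opposite in phase to Nr1d1, Dbp and the Period genes. DBP and TEF are transcription factors of the PAR bZIP family that bind D-boxes and carry the rhythm to further genes. The heart has its own clock, which in mice is known to set the daily rhythm of genes of metabolism and of the electrical activity of cardiomyocytes.

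The sequences that link these genes were looked up as short motifs in the 250 bases before the RefSeq start sites (GRCm38.p6 promoter table), because members that share a regulator are compared in what follows. Of the 10 genes, 9 had at least 1 such window and 14 windows were read in all, each placed on GRCm39 by an exact match of its sequence. The E-box CACGTG, to which the ARNTL and CLOCK pair binds, was present in 3 of the 14 windows, from 2 genes, Per1 and Tef. It was present in 6.02% of the 32851 windows of all genes. The variant CACGTT was present in Nr1d1 alone among the 9 genes, in 1 of the 14 windows, and in 3.85% of all windows. The D-box TTATGTAA, bound by DBP and TEF, was present only in Per3 among the 9 genes, in 1 of the 14 windows. There it stood at 2 positions, 205 and 158 bases before the start site. The D-box was present in 0.819% of all windows. The letters TAGGTCA and TGGGTCA, to which REV-ERB proteins bind, were found in none of the 14 windows and in 2.23% and 3.24% of all windows, respectively. Both strands were searched, no motif overlapped another, and a match or its absence is a description of these windows alone.

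The stretch of Per3 on the minus strand at chr4:151129141-151129372 and that of Nr1d1 on the minus strand at chr11:98666204-98666453 are shown first, because they hold the repeated D-box and the variant E-box, which reads AACGTG on the printed strand. The second Tef promoter on the plus strand at chr15:81695365-81695614 follows, since its E-box stands 138 bases before the start site. Capitals mark the motif in each sequence, read 5′ to 3′.
Per3: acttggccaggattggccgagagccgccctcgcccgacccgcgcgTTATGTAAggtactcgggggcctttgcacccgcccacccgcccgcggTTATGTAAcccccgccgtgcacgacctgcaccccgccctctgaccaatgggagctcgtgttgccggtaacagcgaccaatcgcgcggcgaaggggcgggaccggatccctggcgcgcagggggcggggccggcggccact
Nr1d1: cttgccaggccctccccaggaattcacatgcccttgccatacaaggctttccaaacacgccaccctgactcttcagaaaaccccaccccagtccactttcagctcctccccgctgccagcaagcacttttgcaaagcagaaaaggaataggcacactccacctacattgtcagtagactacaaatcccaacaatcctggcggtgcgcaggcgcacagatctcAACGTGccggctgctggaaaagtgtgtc
Tef: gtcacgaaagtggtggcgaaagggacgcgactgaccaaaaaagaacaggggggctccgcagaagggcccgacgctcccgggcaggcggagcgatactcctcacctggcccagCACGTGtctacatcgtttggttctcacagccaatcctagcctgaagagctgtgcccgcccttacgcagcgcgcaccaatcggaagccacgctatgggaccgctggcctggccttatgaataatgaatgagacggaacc

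The E-boxes of Per1, on the plus strand at chr11:68989597-68989626, and of the first Tef promoter, on the plus strand at chr15:81686735-81686764, lie inside annotated exons of these genes and are shown as 30 bases around the site, with the motif in capitals.
Per1: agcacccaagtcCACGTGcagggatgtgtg
Tef: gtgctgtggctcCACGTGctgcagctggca

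The libraries held between 66130887 and 72641124 counts, and the members were covered by 169 (Per2 in WT mouse 2) to 9198 counts (Nr1d2 in WT mouse 3) in each mouse. Levels are given as CPM, the counts of a gene scaled to the same library size in each mouse after TMM normalization, in which 3 counts stood for 0.0317 to 0.0541 CPM. The share of counts from mitochondrially encoded genes differed between mice, with 13.8% in WT mouse 3, 45.4% in mutant mouse 1 and 29.7% to 37.3% in the other 4 mice. The summed level of 9 ventricular cardiomyocyte markers was 39539.7 to 43749.8 CPM in WT and 30259.3 to 42619.2 CPM in mutant mice, and 0 of 9 passed the threshold. Of 4 atrial markers, Myl7 and Sln stayed at or below 0.262 CPM and Myl4 at 0.357 to 0.570 CPM in every mouse. Nppa, which the stressed ventricle also expresses, was at 37.7 to 76.0 CPM in WT and 52.9 to 106.5 CPM in mutant mice (log2 fold change 0.53, edgeR adjusted p = 0.643). The summed level of 8 macrophage markers was 188.6 to 220.0 CPM in WT and 328.0 to 435.7 CPM in mutant mice without overlap. All 8 had a log2 fold change above 0, with 2 past the threshold in edgeR's test (C1qb and C1qc) and 0 once any single mouse was left out. The 4 red blood cell markers, of which 0 passed the threshold, summed to 574.8 to 1466 CPM in WT and 1032 to 2604 CPM in mutant mice. At an unadjusted p under 0.05 in edgeR stood 8 of 8 macrophage and 2 of 4 red blood cell markers. All of these had a higher mean in mutant mice, as had 5.77% of all tested genes at that p. No macrophage or red blood cell marker was at 0 in any mouse. The summed levels of 6 endothelial, 6 fibroblast and 6 smooth muscle and pericyte markers overlapped between the genotypes, with 0 past the threshold in edgeR in each list and 0, 2 and 2 genes, respectively, at an unadjusted p under 0.05 (8.63% of all tested genes). Of these lists, the smooth muscle genes Myh11 and Tagln (log2 fold changes of -0.71 and -0.65) and the fibroblast gene Lum (0.61) had groups without overlap, as had 7.23% of all tested genes in the lower and 8.3% in the higher direction. The part of these differences between mice in the levels of the clock genes was not tested. In whole LV RNA, fewer cells of a type and less RNA per cell cannot be told apart. Lztr1 itself was at 22.2 to 24.2 CPM in WT and 23.9 to 27.9 CPM in mutant mice, and a knock-in of this kind leaves the gene transcribed, so its level does not check the labels.

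The first comparison asked whether the clock genes stood at other levels in the mutant LV than in the WT LV. All 10 members passed the filter on low counts, 0 of 10 passed an adjusted p of 0.05 in edgeR's quasi-likelihood test, and 0 of 10 had an unadjusted p under 0.05. The same counts over all 17212 tested genes were 7 (0.0407%) and 1486 (8.63%). DESeq2 likewise called 0 of the 10. The log2 fold change of mutant over WT mice was above 0 for 5 members and below 0 for the other 5, with a median of -0.012 beside 0.012 over all tested genes, and adjusted p ran from 0.622 for Arntl to 0.979 for Npas2. The groups overlapped in CPM for each of the 10 members, whereas 15.5% of tested genes had groups without overlap. Exact permutation of the genotypes, two-sided, can give no p below 0.1 with 3 mice a group, and its p ran from 0.2 for Arntl to 0.9 for Npas2.

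**Figure D1:**
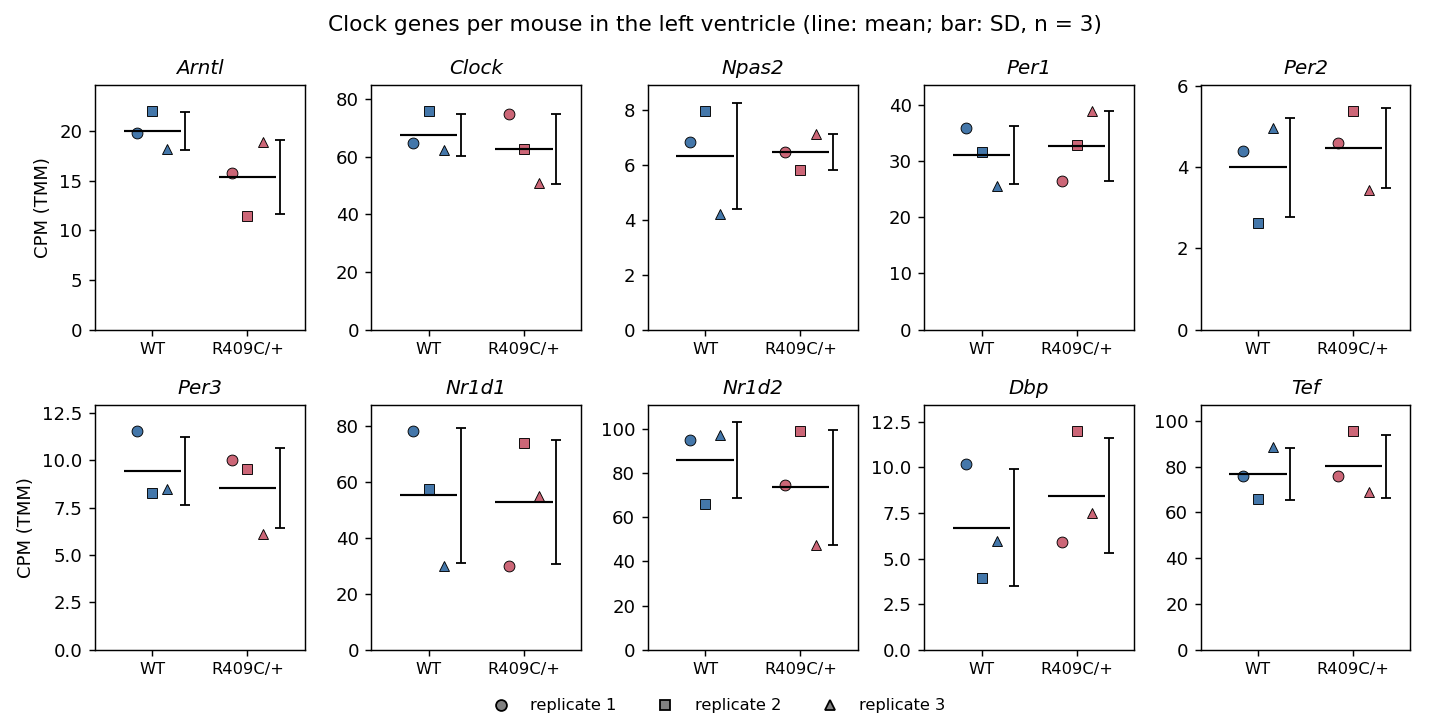
CPM of the 10 clock genes on a linear axis from 0 in 3 WT (blue) and 3 Lztr1 R409C/+ mice (red), with the symbol giving the replicate, the horizontal line the mean and the bar the SD. The groups overlap for all 10 genes, and WT mice alone span 30 to 77.9 CPM in Nr1d1.

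Of the activators, Arntl, whose product pairs with CLOCK or NPAS2, had the smallest adjusted p of the 10 members. Its level was 19.8, 22.0 and 18.2 CPM in WT mice 1, 2 and 3 and 15.8, 11.4 and 18.9 CPM in mutant mice 1, 2 and 3. Mutant mouse 2 was the lowest of the 6 and WT mouse 2 the highest, and mutant mouse 3 lay between WT mice 3 and 1, so the groups overlapped. The means were 20 ± 1.9 CPM in WT and 15.4 ± 3.75 CPM in mutant mice (SD, n = 3), a log2 fold change of -0.38 (SE 0.20, 95% interval -0.81 to 0.05, edgeR adjusted p = 0.622). Arntl lies on GRCm39 at chr7:112806152-112914735 (ENSMUSG00000055116.9).

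Clock, which encodes the DNA-binding partner of ARNTL, was at 64.8, 75.9 and 62.3 CPM in WT mice and 75.0, 62.7 and 50.8 CPM in mutant mice, in replicate order. WT mouse 2 and mutant mouse 1 stood side by side at the top. Its log2 fold change was -0.11 (SE 0.17, 95% interval -0.49 to 0.27, edgeR adjusted p = 0.903). Npas2, the relative that can replace CLOCK, was at 6.84, 7.97 and 4.20 CPM in WT mice and 6.50, 5.83 and 7.13 CPM in mutant mice. All 3 mutant values fell inside the WT range, and the log2 fold change was 0.04 (SE 0.25, 95% interval -0.50 to 0.57, edgeR adjusted p = 0.979). The 3 activators thus had 0 calls, with 1 of 3 above 0.

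Of the Period genes, Per1, which also answers acutely to glucocorticoids and other stimuli, was at 35.9, 31.7 and 25.6 CPM in WT mice and 26.4, 32.9 and 38.9 CPM in mutant mice. The lowest mouse was WT mouse 3 and the highest mutant mouse 3, with the other 4 mixed between the genotypes. Its log2 fold change was 0.08 (SE 0.19, 95% interval -0.33 to 0.48, edgeR adjusted p = 0.941). Per2, whose product carries much of the feedback on the activator, was at 4.4, 2.63 and 4.96 CPM in WT mice and 4.60, 5.38 and 3.44 CPM in mutant mice. WT mouse 2 stood below all other mice, and the remaining WT values lay inside the mutant range. The log2 fold change of Per2 was 0.16 (SE 0.28, 95% interval -0.45 to 0.77, edgeR adjusted p = 0.913). Per3, a Period gene that the core loop can run without, was at 11.5, 8.30 and 8.51 CPM in WT mice and 10, 9.52 and 6.10 CPM in mutant mice, with a log2 fold change of -0.15 (SE 0.23, 95% interval -0.64 to 0.35, edgeR adjusted p = 0.899). Its D-box repeat is the sequence printed first above, while Per1, whose E-box is also printed, and Per3 were highest in different mice, mutant mouse 3 and WT mouse 1.

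Of the repressors of Arntl, Nr1d1 was at 77.9, 57.2 and 30 CPM in WT mice and 29.8, 73.6 and 54.7 CPM in mutant mice. Each genotype held a high, a middle and a low mouse, and the means of 55.1 ± 24.0 and 52.7 ± 22.0 CPM (SD, n = 3) were close together. The log2 fold change was -0.06 (SE 0.39, 95% interval -0.95 to 0.83, edgeR adjusted p = 0.978). The lowest values came from WT mouse 3 and mutant mouse 1, the mice at the ends of the mitochondrial share, and without both of them the log2 fold change was -0.07. On GRCm39, 52.3% of the exon bases of Nr1d1 (chr11:98658752-98666188, minus strand) also lie in exons of Thra, the thyroid hormone receptor gene on the opposite strand. Whether the counting used strand is not given in the sources used here, so reads of that stretch cannot be assigned to either gene with certainty. Thra was at 59.6, 56.8 and 63.5 CPM in WT mice and 58.9, 54.1 and 67.1 CPM in mutant mice, a far narrower range than that of Nr1d1.

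Nr1d2, the paralog of Nr1d1, was at 94.8, 66 and 97.1 CPM in WT mice and 74.4, 98.9 and 47.2 CPM in mutant mice. Both the highest and the lowest mouse were mutant, numbers 2 and 3, so all WT values lay inside the mutant range. The log2 fold change was -0.23 (SE 0.25, 95% interval -0.76 to 0.31, edgeR adjusted p = 0.836). The paralogs did not order the mice alike: WT mouse 3 was the second highest for Nr1d2 and the second lowest for Nr1d1.

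Of the PAR bZIP output factors, Dbp had the widest relative range of the 10 members over all mice. It was at 10.2, 3.93 and 5.96 CPM in WT mice and 5.90, 12.0 and 7.49 CPM in mutant mice, a 3.05-fold span from WT mouse 2 to mutant mouse 2. WT mouse 1 stood second, above the other mutant mice, so the genotypes overlapped. The means were 6.69 ± 3.19 and 8.46 ± 3.15 CPM (SD, n = 3), and the log2 fold change was 0.34 (SE 0.34, 95% interval -0.41 to 1.08, edgeR adjusted p = 0.822). In exon sequence, 15.5% of Dbp overlaps Sphk2 on the opposite strand, which was at 12.4 to 17.7 CPM in the 6 mice. Tef was at 75.8, 65.9 and 88.7 CPM in WT mice and 75.7, 95.3 and 69.0 CPM in mutant mice, with a log2 fold change of 0.06 (SE 0.18, 95% interval -0.32 to 0.44, edgeR adjusted p = 0.954). Like Dbp, Tef was lowest in WT mouse 2 and highest in mutant mouse 2, but its span was the narrowest of the members at 1.45-fold.

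**Figure D2:**
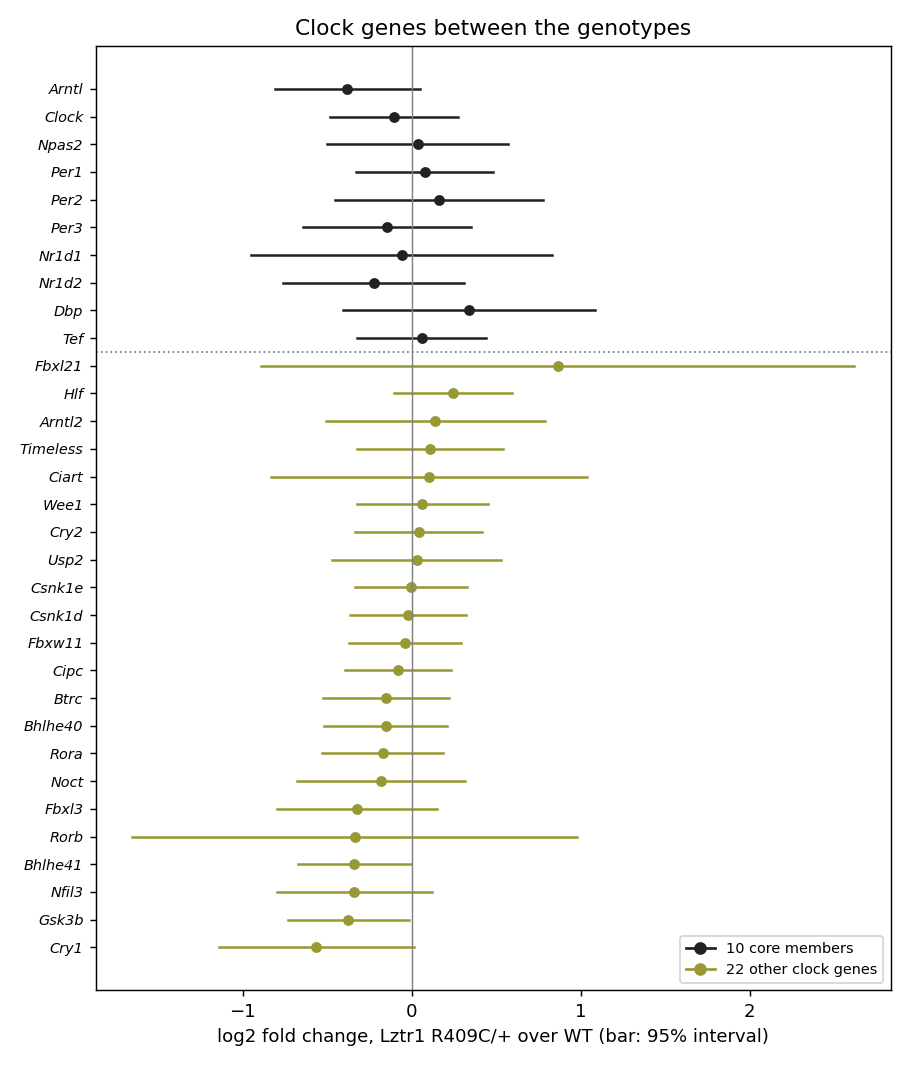
Log2 fold change of Lztr1 R409C/+ over WT mice (points) with the 95% interval (bars) for the 10 members (black) and 22 of 23 other clock genes (olive), from edgeR's fit over all 17212 tested genes. The interval of every member crosses 0, from -0.81 to 0.05 in Arntl to -0.41 to 1.08 in Dbp.

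The intervals show how large a difference these data could still hold under edgeR's fit, whose SE draws on the variance of other genes. For a gene of wide spread such as Nr1d1, they can be narrower than its own values alone would give. For 9 of 10 members the 95% interval of the fold change lay inside a 2-fold change in either direction, with Dbp the exception. It lay inside a 1.5-fold change for 4 of 10, Clock, Npas2, Per1 and Tef. For 9 of 10 members the highest WT mouse exceeded the lowest WT mouse by a larger fold than that between the group means. Arntl was the exception, and the same comparison among mutant mice held for 10 of 10. A range between single mice is usually wider than a difference between group means in a gene without an effect. The comparison was not made over all tested genes, so it does not set the members apart from other genes.

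Per length of exon, the members formed 5 steps in WT mice, and neighbours on either side of a step did not overlap. Nr1d1 led with 17.0 ± 7.42 CPM per kb (SD, n = 3), followed by Nr1d2 with 9.5 ± 1.91 and Tef with 9.30 ± 1.38 CPM per kb. The ranges of these 3 neighbours overlapped in WT mice. Per1 with 4.06 ± 0.672 and Clock with 3.92 ± 0.419 CPM per kb came next and overlapped each other, but none of the WT values of Per1 reached those of Tef. Dbp with 1.93 ± 0.919 and Arntl with 1.73 ± 0.164 CPM per kb overlapped each other, as did Npas2 with 1.16 ± 0.353 and Per3 with 0.9 ± 0.173 CPM per kb. The wide range of Dbp, from 1.13 to 2.94 CPM per kb, also reached that of Npas2. Per2 was the lowest at 0.609 ± 0.186 CPM per kb and lay below the WT range of Per3. In mutant mice Tef stood above Nr1d2, at 9.69 ± 1.66 and 8.12 ± 2.86 CPM per kb, and Per1 again stood above Clock, at 4.27 ± 0.814 and 3.64 ± 0.701 CPM per kb.

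The second question was how far mice of a single genotype differed from each other in these genes. Nr1d1, Dbp and Nr1d2 had the widest spread, with an SD of log2 CPM within genotype of 0.68, 0.57 and 0.44, respectively. Only 1.2% of tested genes spread more widely than Nr1d1, 2.63% more than Dbp and 8.89% more than Nr1d2. Per2, Npas2 and Per3 followed at 0.37, 0.33 and 0.32, and Arntl, Per1, Tef and Clock at 0.27, 0.26, 0.23 and 0.22. The median over all tested genes was 0.24, so 8 of 10 members spread more widely than the median gene. The fold from the lowest to the highest of the 6 mice was 1.45 to 3.05 among the members, with a median of 1.91, against a median of 1.6 over all tested genes. The 23 other clock genes had a median within-genotype SD of 0.20, below that of all genes, against 0.32 in the members. It was 0.31 in the 16 clock outputs described below. In the 16 genes that answer to handling, glucocorticoids or temperature, also described below, it was 0.44.

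**Figure D3:**
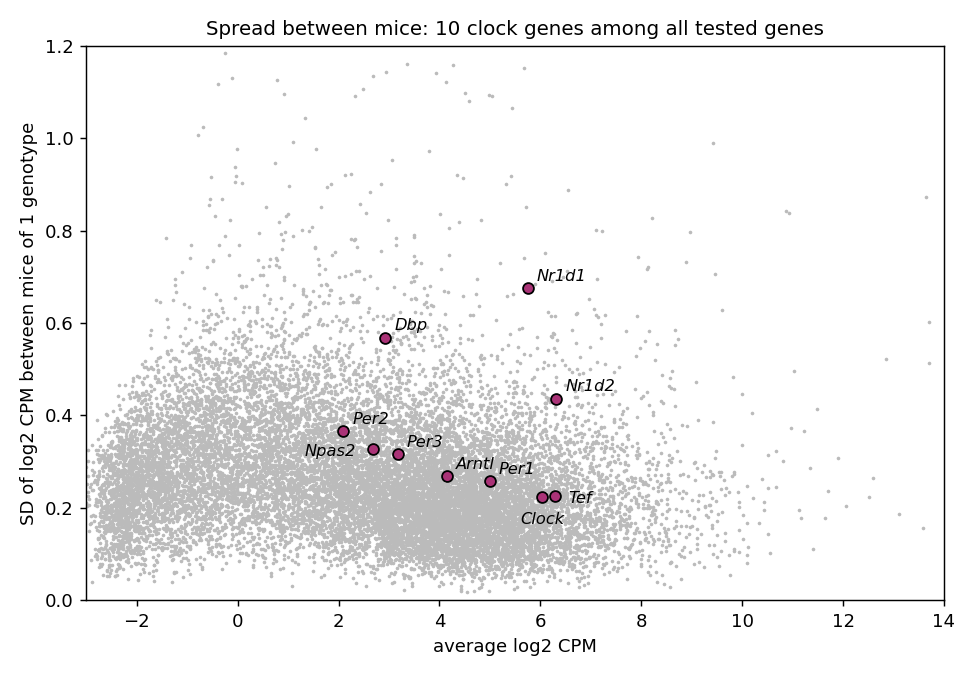
SD of log2 CPM between mice of a genotype (y axis) against the average log2 CPM (x axis) for all tested genes (grey) and the 10 clock genes (purple), with 40 genes outside the axes. Nr1d1 at 0.68 and Dbp at 0.57 stand above most tested genes, while Tef and Clock lie near the median of 0.24.

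The third question was whether the members ordered the mice as opposite arms of the clock would. For each mouse, the mean log2 CPM (with 0.5 added) of Arntl, Clock and Npas2 was subtracted from that of the 7 other members, which peak later in the day. This index, a description without a test, was 0.39, -0.34 and 0.29 in WT mice 1, 2 and 3 and 0.01, 0.79 and 0.06 in mutant mice 1, 2 and 3. The lowest and the highest mouse were WT mouse 2 and mutant mouse 2, and the remaining WT and mutant mice lay between them. The mean was 0.11 ± 0.39 in WT and 0.28 ± 0.43 in mutant mice (SD, n = 3), and the difference of 0.17 was smaller than the spread within either genotype. It turned to -0.05 without WT mouse 2 and to -0.08 without mutant mouse 2.

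**Figure D4:**
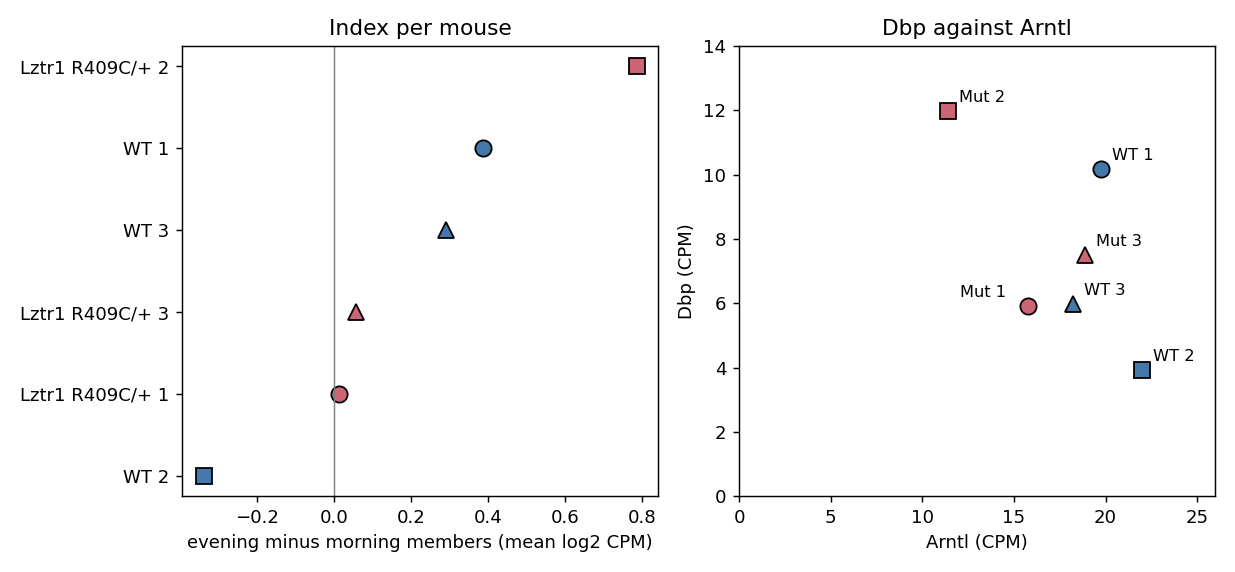
Left, the index of later members minus Arntl, Clock and Npas2 (difference of mean log2 CPM, no unit) for each mouse, in order of value. Right, Dbp against Arntl in CPM on linear axes from 0, with WT mice in blue and mutant mice (Mut) in red. WT mouse 2 at -0.34 and mutant mouse 2 at 0.79 stand at the ends, and mice of both genotypes lie between.

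The ratio of Dbp to Arntl, in CPM, had the same mice at the ends, with 0.179 in WT mouse 2 and 1.05 in mutant mouse 2. Both genes are part of the index, so the ratio is no separate support for its order. The ratio was 0.515 and 0.327 in WT mice 1 and 3 and 0.374 and 0.397 in mutant mice 1 and 3. The ratio of Nr1d1 to Arntl was again highest in mutant mouse 2, at 6.44, but lowest in WT mouse 3, at 1.65. The levels gene by gene are those from which the index was made. WT mouse 2 had the highest level of all 3 of Arntl, Clock and Npas2 and the lowest level of Per2, Dbp and Tef. Nr1d1 and Per1 stood above their mean there. Mutant mouse 2 had the highest level of Per2, Nr1d2, Dbp and Tef and the lowest of Arntl, with 7 of 7 later members above and 0 of 3 activators above the mean of the 6 mice. In mutant mouse 3, Clock, Nr1d2 and Per3 were at their lowest and Per1 at its highest, so this mouse fitted neither order. Nor did WT mouse 1, with 6 of 7 later members and also 3 of 3 activators above the mean. WT mouse 3 had 3 of 7 later members and 1 of 3 activators above the mean, and mutant mouse 1 had 2 of 7 and 2 of 3.

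**Figure D5:**
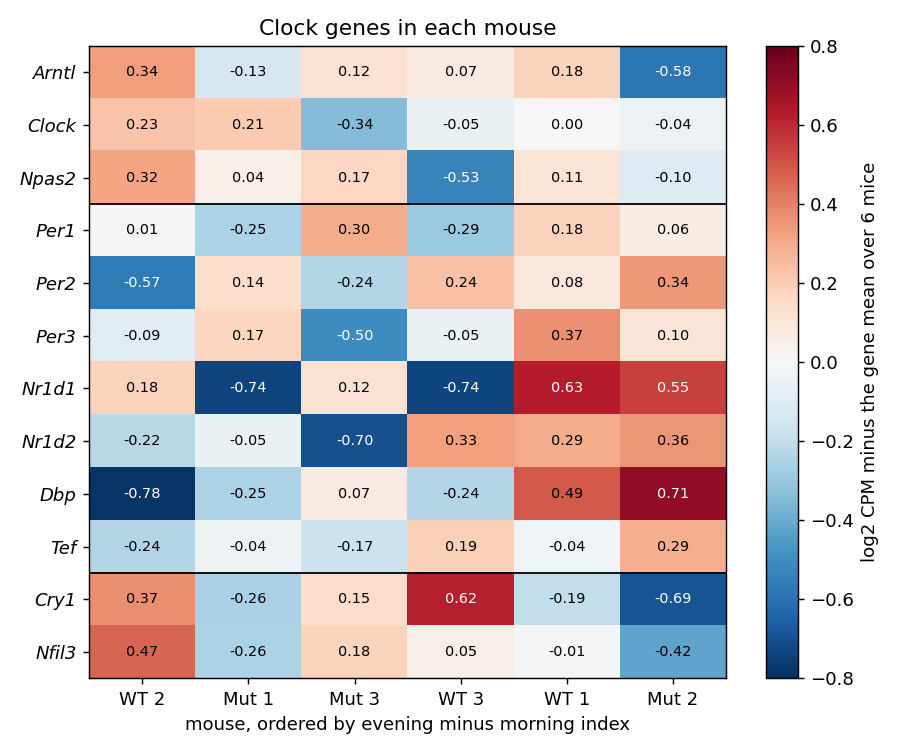
Log2 CPM of each gene minus its mean over the 6 mice (color, with the value printed), with mice ordered by the index from low to high. The upper block holds Arntl, Clock and Npas2, the middle block the 7 later members and the lower block Cry1 and Nfil3, which are not part of the index. Arntl goes from 0.34 in WT mouse 2 to -0.58 in mutant mouse 2, and Dbp from -0.78 to 0.71.

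Over the 6 mice, Arntl was negatively related to Tef, Per2 and Dbp, with Pearson r of -0.78, -0.74 and -0.64 on log2 CPM. Its r with Nr1d1 was -0.08 and with Per1 0.13. Pairs across the arms also had positive r, with 0.61 for Clock and Per3, 0.61 for Npas2 and Per1 and 0.51 for Npas2 and Nr1d1, while Arntl and Clock, of the same arm, had 0.09, Per1 and Per2 -0.36 and Per1 and Nr1d2 -0.45. Per2 and Tef had r = 0.90, Per1 and Nr1d1 0.83, and Per3 and Nr1d2 0.80, whereas Nr1d1 and Nr1d2 had r = 0.04. These values describe 6 libraries that share their depth and normalization between genes, and carry no test. The genes most like Arntl over the 6 mice were Rps6ka2 (r = 0.992), Polm (0.988) and Gm13068 (0.975), and the most opposite were Nostrin (-0.992), Trnp1 (-0.991) and Lrch2 (-0.985). For Dbp they were Txnip (0.987), Agap2 (0.986) and Gm56623 (0.985) on the like side and 3300002P09Rik (-0.975), Ppp1r3c (-0.973) and Zfp697 (-0.973) on the other. For Per2 they were Gm15682 (0.99), A930015D03Rik (0.983) and Olfr1034 (0.983), and opposite to it Setbp1 (-0.996), Nipsnap1 (-0.988) and Zfat (-0.981). With 6 points, 58 tested genes had r above 0.9 with Arntl, 44 with Dbp and 84 with Per2, and none of the genes named here as most alike is a clock gene in the lists used.

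The rest of the clock was measured through 23 further genes, which include cryptochromes, BHLHE repressors, kinases, ubiquitin ligases and others. All 23 were tested, 0 passed the threshold in edgeR or in DESeq2, and 2 (Gsk3b and Bhlhe41) had an unadjusted p under 0.05 in edgeR, both with a lower mean in mutant mice (2.86% of all tested genes in this direction). This count of 2 was 0 with upper quartile normalization and 0 without WT mouse 2, WT mouse 3, mutant mouse 1 or both mice at the ends of the mitochondrial share. It was 1 with library size only, with at least 10 counts in every mouse and with the replicate block, and 3 with no filter, with DESeq2 and without mutant mouse 3. The log2 fold change was above 0 for 9 and below 0 for 14, with a median of -0.04 against 0.01 over all genes. Gsk3b, a kinase that phosphorylates several clock proteins, was at 77.5, 81.6 and 96.4 CPM in WT mice and 66.8, 74.1 and 56.0 CPM in mutant mice. Its groups did not overlap, as in 7.23% of all tested genes in this direction, and the log2 fold change was -0.38 (SE 0.16, edgeR adjusted p = 0.564). Bhlhe41, a repressor of E-box activation, was at 18.9, 19.5 and 20.4 CPM in WT mice and 15.6, 14.3 and 16.5 CPM in mutant mice, also without overlap. Its log2 fold change was -0.34 (SE 0.15, edgeR adjusted p = 0.573).

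Cry1, the cryptochrome that peaks late in the cycle, was at 7.84, 11.9 and 14.2 CPM in WT mice and 7.47, 5.41 and 10.1 CPM in mutant mice. It was lowest in mutant mouse 2, as Arntl was, and its log2 fold change was -0.56 (SE 0.27, edgeR adjusted p = 0.588). Cry2 ranged from 17.9 to 19.6 CPM in WT and from 15.9 to 22.7 CPM in mutant mice. Nfil3, the D-box repressor that opposes DBP and TEF, was at 12.2, 17.1 and 12.7 CPM in WT mice and 10.2, 9.02 and 13.9 CPM in mutant mice. It was highest in WT mouse 2 and lowest in mutant mouse 2, the reverse of Dbp and Tef, and its log2 fold change was -0.34 (SE 0.21, edgeR adjusted p = 0.692). Nfil3 was the only 1 of the 23 other clock genes with both ends so placed. Of the 23, 6 were highest in WT mouse 2 and 4 lowest in mutant mouse 2. In the order of Dbp, 3 were highest in mutant mouse 2, 3 lowest in WT mouse 2 and 0 both. These counts were not made over all tested genes. Hlf, the remaining PAR bZIP factor, was at 19.8, 18.4 and 17.2 CPM in WT mice and 22.0, 24.2 and 19.2 CPM in mutant mice (log2 fold change 0.24, SE 0.16, edgeR adjusted p = 0.713). Bhlhe40, a paralog of Bhlhe41, ranged from 37.4 to 44.9 CPM in WT and from 30.6 to 43.1 CPM in mutant mice. Fbxl21, a ubiquitin ligase gene of the cryptochromes, had the largest log2 fold change of the plotted genes at 0.86 (SE 0.81, 95% interval -0.89 to 2.62, edgeR adjusted p = 0.808), with all mice at or below 0.342 CPM and overlapping groups. It was singled out after its values were seen. Ciart, a repressor in the loop, was low in all mice, at 0.621 to 1.13 CPM in WT and 0.685 to 1.34 CPM in mutant mice.

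Genes known as outputs of the heart clock were compared as a list of 16. Here 0 passed the threshold in edgeR or in DESeq2, and 1 (Tspan4) had an unadjusted p under 0.05 in edgeR, against 8.63% of all tested genes. That count of 1 was 0 with library size only. It was 2 without WT mouse 2 and without both mice at the ends of the mitochondrial share. The log2 fold changes divided evenly, 8 above and 8 below 0, with a median of -0.01, against 51.4% above 0 and a median of 0.01 over all tested genes. Klf15, a regulator of cardiac metabolism and of Kcnip2, was at 50.7, 30.3 and 50.3 CPM in WT mice and 30.7, 44.3 and 32.3 CPM in mutant mice. Like Dbp, it was lowest in WT mouse 2. Kcnip2, the subunit of the transient outward potassium channel, stayed between 127.2 and 148.7 CPM in the 6 mice. Tcap, a sarcomere protein gene, was at 277.2, 176.3 and 311.4 CPM in WT mice and 185.8, 340.7 and 291.1 CPM in mutant mice, with the same mice at the ends as Dbp. Pdk4, which turns the heart from glucose to fatty acids, was at 892.9, 434.3 and 480.7 CPM in WT mice and 504.7, 1377 and 519.7 CPM in mutant mice. Its highest and lowest mice were again mutant mouse 2 and WT mouse 2, and its log2 fold change was 0.41 (SE 0.43, edgeR adjusted p = 0.834). Tcap and Pdk4 were the 2 of 16 outputs with both ends in these mice. Of the 16, 3 were highest in mutant mouse 2, 4 lowest in WT mouse 2 and 2 highest in WT mouse 2. Of 41 tested cell type markers, 4 were highest in mutant mouse 2, 6 lowest in WT mouse 2 and 2 both. Such counts were not made over all tested genes, so they do not show that the outputs follow the clock genes. Nampt, of the salvage route to NAD, ranged from 168.4 to 211.2 CPM in WT and from 143.3 to 185.6 CPM in mutant mice. Tspan4, a membrane protein gene, was at 8.57, 9.82 and 7.62 CPM in WT mice and 12.7, 13.6 and 11.2 CPM in mutant mice without overlap, as in 8.3% of all genes in this direction (log2 fold change 0.53, SE 0.18, edgeR adjusted p = 0.454). Kcnk3, a potassium channel gene, had groups without overlap in the lower direction, with 315.9 to 340.4 CPM in WT and 285.6 to 309.6 CPM in mutant mice (log2 fold change -0.16, SE 0.15, edgeR adjusted p = 0.802), and was named after its values were seen.

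Genes that answer to handling, glucocorticoids or temperature, and to whose triggers Per1 and Per2 can also respond, were counted beside the members. Of 16 such genes, 0 passed the threshold in edgeR, 1 in edgeR with library size only and 1 in DESeq2. In edgeR, 4 had an unadjusted p under 0.05 with a higher mean in mutant mice (5.77% of all tested genes in this direction). Counted in either direction, this number was 7 without both mice at the ends of the mitochondrial share and 6 without mutant mouse 1. It was 5 without mutant mouse 2 or mutant mouse 3, and 3 with the replicate block or without WT mouse 2. The log2 fold change was above 0 for 13 of the 16, with a median of 0.35, against 51.4% and a median of 0.01 over all tested genes. The 4 genes, named after their values were seen, were the immediate early genes Fos, Fosb and Junb and the metallothionein gene Mt2. Fos was at 1.01, 1.23 and 1.35 CPM in WT mice and 1.48, 8.18 and 3.88 CPM in mutant mice, with a log2 fold change of 1.91 (SE 0.49, edgeR adjusted p = 0.274). Fosb ranged from 0.393 to 0.528 CPM in WT and from 0.578 to 1.90 CPM in mutant mice (log2 fold change 1.65, SE 0.48, edgeR adjusted p = 0.331). Mt2 was at 6.86, 7.22 and 4.43 CPM in WT mice and 10.1, 29.8 and 9.31 CPM in mutant mice (log2 fold change 1.41, SE 0.44, edgeR adjusted p = 0.454). These 3 genes had groups without overlap, as had 8.3% of all tested genes in this direction, and were highest in mutant mouse 2, which was also highest for Per2. Junb ranged from 4.20 to 6.48 CPM in WT and from 4.98 to 13.4 CPM in mutant mice with overlap (log2 fold change 0.78, SE 0.32, edgeR adjusted p = 0.548). Unlike these 3, Junb was highest in mutant mouse 3, as was Per1. Per1 and Per2 had log2 fold changes of 0.08 and 0.16 in the same fit. The part of these triggers in the levels of the members was not tested.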

How the data were processed

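LV RNA of 3 WT and 3 Lztr1 R409C/+ mice was sequenced. The authors trimmed reads with Trim Galore, aligned them to GRCm39 with HISAT2, excluded rRNA and used StringTie, and deposited whole-number counts per gene without normalization. Tool versions, and how counts were taken from StringTie, are not given in the sources used here. The authors also deposited their edgeR comparison, with log2 fold changes, average log2 CPM, p-values and adjusted p-values, of which only gene names were read here.

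Total counts were 66130887 to 72641124 per mouse. Floors cover counting error only. In R 4.3.3, counts were filtered with filterByExpr (17212 genes left), normalized by TMM and compared with the robust quasi-likelihood test of edgeR 4.0.16, two-sided, with Benjamini-Hochberg adjustment at 0.05 over all tested genes. Intervals of 95% were made from the SE of each log2 fold change in that fit, which shares variance between genes. The common biological coefficient of variation was 26.1%. The labels do not state that the mice of a group came from separate litters, so p-values measure the spread between these mice. Motifs were read from RefSeq windows, and positions and exon lengths from GENCODE, which held 56236 of the 56923 genes. The steps were tested on simulated data.

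The members, gene lists and tests were chosen with earlier results of these data known. The genes named by rule are the 10 members and preset examples of the other clock genes and clock outputs. To these were added any gene of these 2 lists at an unadjusted p under 0.05. For Arntl, Dbp and Per2, the 3 most and least alike genes are also named. Outside this rule, Fbxl21, Kcnk3, Fos, Fosb, Junb and Mt2 were named after their values were seen. The markers C1qb, C1qc, Myh11, Tagln and Lum were also named for their values. Alternatives were other normalizations, filters and tests (DESeq2 1.42.0), removal of mitochondrially encoded genes, a replicate block, a gene length correction and the omission of each mouse. The omission of WT mouse 3 and mutant mouse 1 together was chosen after the data were seen. The values of 1 of the 23 other clock genes are not reported here, though the counts over the list include it.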

Additional observations from a re-analysis of the deposited data

How the results depend on the processing

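The count of members past the threshold stayed at 0, as did that of the 23 other clock genes, under all alternatives that gave a count, and the smallest adjusted p of a member under any of them was 0.543. At an unadjusted p under 0.05 there was 1 member without WT mouse 1 (Dbp) and 1 without mutant mouse 3 (Arntl). The count over all genes, 7, was 21 with library size only, 20 without a filter, 150 with DESeq2 and 1 without both mice at the ends of the mitochondrial share, and ran from 2 to 4 when each mouse was left out. No other normalization, robustness setting or removal of mitochondrially encoded genes moved it. With library size only, the median over all genes moved from 0.01 to -0.14, and Npas2 turned to -0.045, Per1 to -0.018, Per2 to -0.063 and Tef to -0.14. In the same setting Clock moved to -0.28, Per3 to -0.32, Nr1d2 to -0.43 and Dbp to 0.22. Without both end mice, Npas2 turned to -0.19, Clock moved to -0.31, Per3 to -0.34, Per2 to 0.33, Nr1d2 to -0.14, Tef to 0.21 and the index difference from 0.17 to 0.40. The causes were not tested.

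With each mouse left out, log2 fold changes ran from -0.26 to 0.025 in Clock, -0.19 to 0.23 in Npas2, -0.067 to 0.20 in Per1, -0.070 to 0.35 in Per2, -0.28 to 0.048 in Per3, -0.38 to 0.27 in Nr1d1, -0.51 to 0.011 in Nr1d2, -0.0015 to 0.77 in Dbp and -0.093 to 0.17 in Tef. In Arntl they ran from -0.56 to -0.21, and none of its 17 alternatives changed the sign. The index difference ran from -0.08 to 0.31. Of the other genes, Cry1 ran from -0.81 (without mutant mouse 3) to -0.37 (without WT mouse 3), Nfil3 from -0.54 (without mutant mouse 3) to -0.17 (without WT mouse 2) and Hlf from 0.15 (without mutant mouse 2) to 0.33 (without mutant mouse 3), with no change of sign. The labels do not state whether same-numbered mice belong together. Deviations of same-numbered mice had r of -0.031, 0.057 and -0.099, and those of differently numbered mice -0.079 to 0.095. These values cannot show whether same-numbered mice were littermates or handled together. A fit with the number as a replicate block called 1 gene and 0 members. The gene length correction, possible for 99.5% of tested genes, has no test and gives no count. It moved Npas2 to -0.045, Nr1d1 to -0.22, Clock to -0.019, Dbp to 0.19, Per2 to 0.10 and Tspan4 from 0.53 to 0.37, with smaller moves in the other members. The lowest count of a member in any mouse was 169.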
